A study of Mus musculus with 10 samples.

Results

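Expression of 10 genes of neutrophils and inflammatory myeloid cells was followed in mouse liver: S100a8, S100a9, Csf3r, Il1b, Il1rn, Cd14, Tlr2, Nlrp12, Nlrp3 and Tnf. They were chosen by name as a group of genes that these cells are known for, and all 10 had a probe set among the 18193 genes that the arrays named with a single symbol. The study measured D2 (DBA/2J) and B6 (C57BL/6J) female mice fed a high-fat/high-cholesterol diet. The groups were D2 livers at 1, 4, 12 and 21 weeks on the diet (4 arrays), B6 livers at the same weeks (4 arrays), and the livers of each strain at week 0, before the diet (1 array per strain). Every array held RNA pooled in equal amounts from 5 mice, so that the spread between single mice was not measured and the weeks had to serve as replicates. The labels do not give the age of the mice, which rises with the weeks on the diet, and no group on another diet was measured alongside, so time and diet cannot be told apart.

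Neutrophils are short-lived white blood cells made in the bone marrow in response to G-CSF, and they carry S100A8 and S100A9, which pair into the calcium-binding complex calprotectin, in large amounts in their cytosol. Neutrophils, monocytes and the liver's own macrophages, the Kupffer cells, sense bacterial products through CD14 and the Toll-like receptors, and this signal switches on Il1b and Tnf through the transcription factor NF-kB. The NLRP3 inflammasome then activates caspase 1, which cuts the IL-1 beta precursor into its active form, while the product of Il1rn blocks the IL-1 receptor. In fatty liver, inflammation, to which these cells contribute, is part of what separates steatohepatitis from simple fat storage.

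Values below are log2(signal + 1.05) after quantile normalisation, and differences are on the same scale, which understates changes of weak signals. A value under 3.74, the median of all probe sets' means, is called near background here. Of 60 values of 6 Y-linked genes, which female mice lack, 2 lay above it, and the highest was 3.89. Of the 10 genes, 9 had a mean above this level and were tested together with all other such genes, 11059 in all. Tnf had a mean of 3.52 and was not. The B6 week 4 array stood apart from the rest: its mean correlation with the other 9 arrays was 0.926, against 0.944 to 0.957 for each of the others. Within its own strain the mean was 0.942, next to 0.944 for B6 week 0. The other B6 arrays were at 0.956 to 0.962. The fitted differences of the 9 tested genes are also given without the B6 week 4 array. Those within D2 are estimated without that array and keep their size, but it enters the spread behind their p-values. In whole liver, fewer cells of a type and less RNA per cell cannot be told apart.

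The sequences just upstream of these genes are shown because members that move together may carry related letters there. RefSeq's GRCm38.p6 promoter sequences held 12 start sites of 9 members. Below are the 250 bases before the start site of both calprotectin genes, of Tlr2 and Il1b, which were high on the same array, and of Nlrp12, which was not. They lie at chr3:90668821-90669070 (plus strand), chr3:90695722-90695971 (minus), chr3:83841609-83841858 (minus), chr2:129371140-129371389 (minus) and chr7:3249741-3249990 (minus), and are written 5′ to 3′ along the gene's strand. Both strands were searched, and capitals mark matches to a loose NF-kB pattern (GGG and CC with any 5 bases between them), a PU.1 pattern (GAGGAAG), a C/EBP pattern (TTNNGNAA) or an AP-1 pattern (TGANTCA).
S100a8: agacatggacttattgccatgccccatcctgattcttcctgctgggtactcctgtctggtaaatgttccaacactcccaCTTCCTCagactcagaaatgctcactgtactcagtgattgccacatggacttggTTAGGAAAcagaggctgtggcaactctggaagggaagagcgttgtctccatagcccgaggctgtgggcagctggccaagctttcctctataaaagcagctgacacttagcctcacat
S100a9: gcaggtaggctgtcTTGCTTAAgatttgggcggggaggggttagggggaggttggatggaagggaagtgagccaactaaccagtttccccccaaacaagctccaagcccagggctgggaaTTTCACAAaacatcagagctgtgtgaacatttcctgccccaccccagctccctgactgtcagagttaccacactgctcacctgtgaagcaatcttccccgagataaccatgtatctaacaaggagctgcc
Tlr2: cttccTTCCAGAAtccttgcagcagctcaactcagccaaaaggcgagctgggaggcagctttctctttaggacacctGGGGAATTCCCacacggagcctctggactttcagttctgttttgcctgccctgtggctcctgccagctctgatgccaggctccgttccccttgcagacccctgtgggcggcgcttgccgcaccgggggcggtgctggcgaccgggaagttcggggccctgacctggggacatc
Il1b: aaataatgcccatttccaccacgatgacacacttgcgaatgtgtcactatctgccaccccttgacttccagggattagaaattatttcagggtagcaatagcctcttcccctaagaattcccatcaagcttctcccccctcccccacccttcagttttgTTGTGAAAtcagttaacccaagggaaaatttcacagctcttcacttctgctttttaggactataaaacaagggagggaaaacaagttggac
Nlrp12: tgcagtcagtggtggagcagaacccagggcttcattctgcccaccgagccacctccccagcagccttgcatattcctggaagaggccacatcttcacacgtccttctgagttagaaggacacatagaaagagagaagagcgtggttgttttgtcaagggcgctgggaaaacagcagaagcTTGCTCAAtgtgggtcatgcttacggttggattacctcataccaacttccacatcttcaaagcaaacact
The C/EBP pattern, named for factors of granulocyte development, was found at 10 of the 12 start sites (83.3%), in 8 of the 9 genes, against 36.8% of all 32851 start sites in the table. All 5 sequences shown hold it. The PU.1 pattern, named for a factor of myeloid cells, was found at 4 start sites (33.3%, of S100a8, Csf3r, Nlrp3 and Tnf), against 10.6% of all. The loose NF-kB pattern was present at 6 start sites (50%), near its share of 45.8% among all, and in Tlr2 it occurs as overlapping matches in 1 run of capitals. The exact NF-kB decamer that was also searched was at 0 of the 12, against 0.14% of all. The AP-1 pattern was at 1 of the 12 (8.33%, of Il1rn), against 6.75% of all. The members' own start sites are few and some belong to the same gene. The windows of Il1rn start sites 2 and 3 overlap, so that a C/EBP match they share counts for both. A match is only a run of letters.

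S100a8 and S100a9 encode the subunits of calprotectin, which binds calcium and zinc and is released at sites of inflammation. S100a8 was at 4.11, 4.60, 4.93, 4.07 and 5.63 in D2 livers at weeks 0, 1, 4, 12 and 21, against 3.32, 4.41, 8.16, 4.16 and 5.38 in B6 livers. S100a9 was at 3.35, 4.16, 4.93, 5.03 and 5.28 in D2, against 3.82, 4.52, 7.68, 3.92 and 4.70 in B6. Both genes peaked on the B6 week 4 array, S100a8 by 2.53 over the next highest of all arrays and S100a9 by 2.40. On every other array the strains overlapped. S100a9 was above its own strain's week 0 value on all 8 fed arrays, and S100a8 on 7 of them, the exception being D2 week 12. The mean difference of fed minus week 0 arrays was nevertheless small beside the spread: 1.45 ± 0.86 for S100a8 (SE, 8 fed against 2 week 0 arrays, limma adjusted p = 0.407) and 1.45 ± 0.75 for S100a9 (limma adjusted p = 0.342). Leaving out B6 week 4 gave 1.00 and 1.05 (limma adjusted p = 0.253 and 0.172). D2 minus B6 was −0.42 ± 0.52 for S100a8 and −0.38 ± 0.49 for S100a9 (SE, n = 5 arrays each, limma adjusted p = 0.672 and 0.683), and without the B6 week 4 array both turned positive, at 0.29 and 0.21. The S100a8 probe set is of a type that can bind more than 1 transcript.

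**Figure D1:**
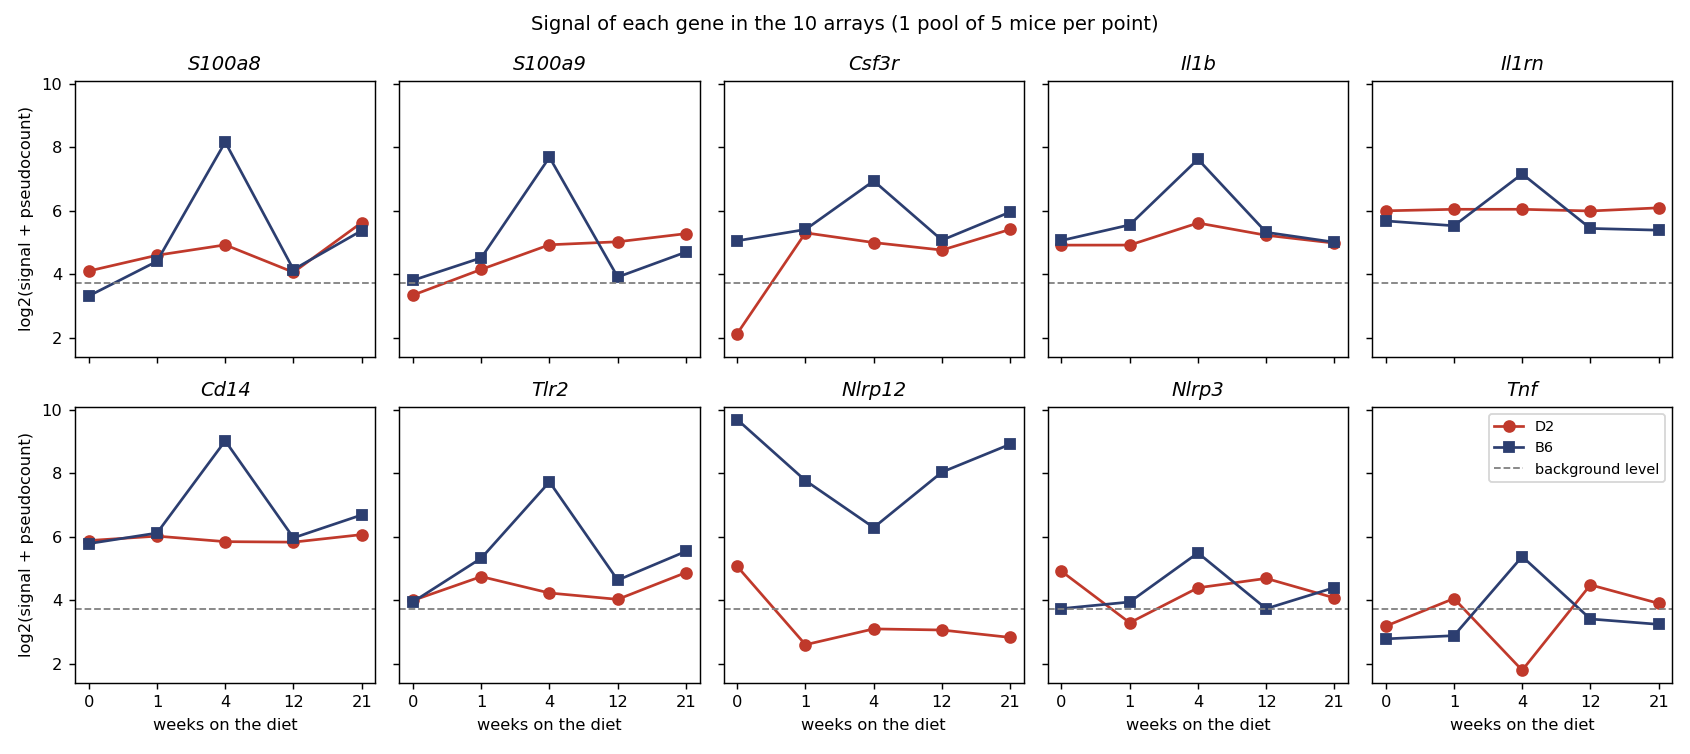
Log2 normalised signal (vertical axis) of each of the 10 genes in D2 and B6 livers at weeks 0, 1, 4, 12 and 21 (horizontal axis), 1 point per array. The B6 week 4 point is the highest for 8 of the 9 tested genes and for Tnf, while Nlrp12 runs from 2.61 to 5.07 in D2 and from 6.29 to 9.69 in B6.

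Csf3r encodes the receptor for G-CSF, the growth factor that drives neutrophil production. It was at 2.14, 5.31, 5.003, 4.77 and 5.42 in D2 livers at weeks 0 to 21, against 5.06, 5.41, 6.94, 5.08 and 5.96 in B6 livers. The D2 week 0 array was low, near background, and all 4 fed D2 arrays lay above it. D2 was below B6 at all 5 weeks, with the narrowest gap at week 1. The fed mean was 5.12 ± 0.30 in D2 (SD, n = 4), a difference of 2.98 ± 0.58 from week 0 (SE, limma adjusted p = 0.0992), and 5.85 ± 0.81 in B6, a difference of 0.79 ± 0.58 from week 0 (limma adjusted p = 0.576), or 0.43 without B6 week 4. With B6 week 4 left out, the D2 difference stayed at 2.98 and passed (limma adjusted p = 0.0253). It rests on 1 week 0 array with a value near background. Its size depended on the processing, at 1.08 to 3.16 over 18 alternatives. With 1 array left out it was 2.88 to 3.10. The responses of the strains differed by 2.19 ± 0.81, which did not pass (limma adjusted p = 0.737), nor did the 2.56 without B6 week 4 (limma adjusted p = 0.503). Over both strains Csf3r differed by 1.89 ± 0.51 between fed and week 0 arrays (limma adjusted p = 0.105), and D2 minus B6 was −1.16 ± 0.40 (limma adjusted p = 0.126). These were 1.75 and −0.97 without B6 week 4 (limma adjusted p = 0.111 and 0.287).

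Il1b encodes the precursor of the cytokine IL-1 beta. Its signal was 4.92, 4.92, 5.62, 5.23 and 4.99 in D2 livers at weeks 0 to 21, against 5.07, 5.56, 7.62, 5.33 and 5.01 in B6 livers. Apart from B6 week 4, all arrays lay within 0.70 of each other, and in both strains week 4 held the highest value. Neither the strain difference (−0.58 ± 0.29, limma adjusted p = 0.26) nor the diet difference (0.54 ± 0.53, limma adjusted p = 0.631) passed, and without B6 week 4 these were −0.23 and 0.25.

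Il1rn encodes the IL-1 receptor antagonist, which liver cells also make in the acute phase response. Its brightest probe set hardly varied in D2, at 6.00, 6.05, 6.05, 6.00 and 6.09 at weeks 0 to 21, against 5.68, 5.53, 7.16, 5.45 and 5.39 in B6. B6 week 4 was above every D2 array, and the other 4 B6 arrays were below every D2 array. D2 minus B6 was 0.19 ± 0.26 (limma adjusted p = 0.689) and became 0.52 without B6 week 4 (limma adjusted p = 0.0807). The B6 fed minus week 0 difference was 0.20 ± 0.56 (limma adjusted p = 0.901) and turned to −0.23 without that array. Il1rn has 3 probe sets. On the second, D2 was at 5.74, 5.50, 5.64, 5.98 and 5.57, against 4.84, 5.29, 6.91, 5.30 and 5.52 in B6, and again B6 week 4 was the highest array. On the third, the weakest, D2 was at 5.10, 4.70, 4.25, 3.73 and 4.63, against 4.50, 3.58, 5.26, 4.98 and 4.77 in B6. D2 minus B6 was 0.19, 0.11 and −0.14 on the 3 probe sets, so they did not share a sign, and none passed in a limma fit over all probe sets (adjusted p = 0.774, 0.898 and 0.904).

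**Figure D2:**
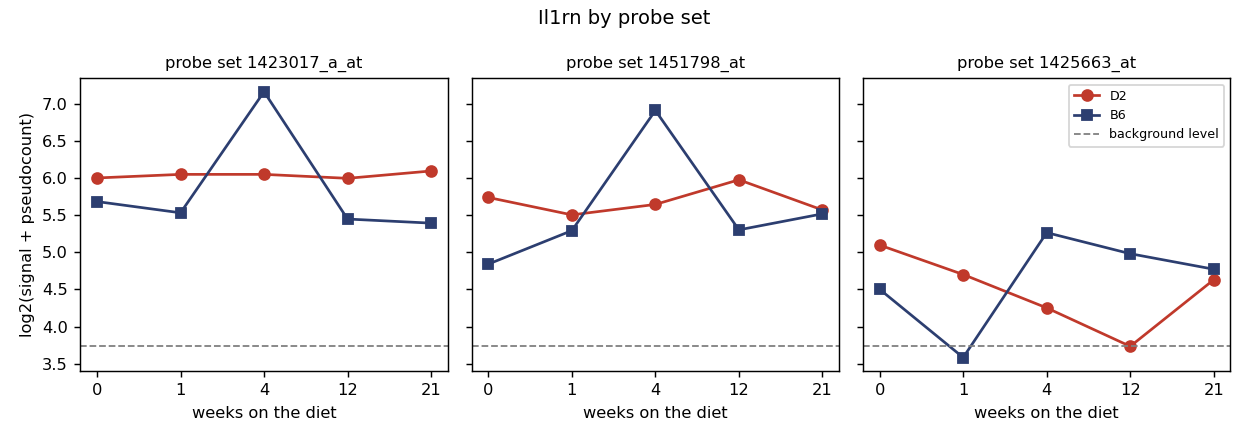
Log2 normalised signal (vertical axis) of the 3 probe sets of Il1rn by week on the diet in D2 and B6 livers, 1 point per array. All 3 are highest on the B6 week 4 array, at 7.16, 6.91 and 5.26, while the order of the strains at the other weeks differs between probe sets.

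Tnf, the gene of tumour necrosis factor, gave a signal near background on 6 of 10 arrays. It was at 3.19, 4.06, 1.81, 4.49 and 3.91 in D2 livers at weeks 0 to 21, against 2.79, 2.90, 5.38, 3.42 and 3.25 in B6 livers. B6 week 4 was again the highest value and the only B6 array above background, while D2 was at its lowest in week 4. In the limma fit without a filter on low signals D2 minus B6 was −0.05 ± 0.66 (adjusted p = 0.98) and fed minus week 0 was 0.66 ± 0.72 (adjusted p = 0.733). Tnf was fitted with all arrays only.

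Cd14 encodes the coreceptor that hands lipopolysaccharide to TLR4, and Tlr2 the receptor for bacterial lipopeptides. Cd14 was flat in D2, at 5.88, 6.02, 5.85, 5.83 and 6.07 at weeks 0 to 21, against 5.79, 6.12, 9.02, 5.97 and 6.69 in B6. Tlr2 was at 4.00, 4.75, 4.24, 4.04 and 4.88 in D2, against 3.96, 5.33, 7.73, 4.64 and 5.55 in B6. In B6, week 4 was the highest and week 21 the next for both genes, and all 4 fed B6 arrays were above their week 0 value. In D2, Cd14 stayed within 0.24 over the 5 weeks. The B6 fed minus week 0 difference was 1.85 ± 0.90 for Tlr2 (SE, limma adjusted p = 0.422) and 1.16 ± 0.90 for Cd14 (limma adjusted p = 0.6). Without B6 week 4 these were 1.21 and 0.47. In D2 the same differences were 0.47 ± 0.90 for Tlr2 and 0.06 ± 0.90 for Cd14 (limma adjusted p = 0.898 and 0.99). D2 minus B6 over all weeks was −1.06 ± 0.46 for Tlr2 and −0.78 ± 0.44 for Cd14 (limma adjusted p = 0.208 and 0.318), and −0.45 and −0.19 without B6 week 4.

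Nlrp3 encodes the sensor of the best-known inflammasome, which assembles on the adaptor encoded by Pycard. It was at 4.92, 3.30, 4.40, 4.69 and 4.08 in D2 livers at weeks 0 to 21, against 3.74, 3.95, 5.50, 3.74 and 4.41 in B6 livers. All 4 fed D2 arrays lay below the D2 week 0 value, and 3 of the 4 fed B6 arrays lay above the B6 week 0 value. The differences from week 0 were −0.80 ± 0.67 in D2 and 0.65 ± 0.67 in B6 (limma adjusted p = 0.719 and 0.695), and the B6 value was 0.29 without B6 week 4. D2 minus B6 over all weeks was 0.01 ± 0.36 (limma adjusted p = 0.99), or 0.29 without B6 week 4 (limma adjusted p = 0.732), and its sign changed with the scaling of the arrays.

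Nlrp12 encodes a NOD-like receptor of myeloid cells that has been described in mice as a restraint on NF-kB signalling. It was the only one of the 9 tested genes to pass any of the comparisons, and it was lower in D2. Its signal was 5.07, 2.61, 3.11, 3.07 and 2.84 in D2 livers at weeks 0 to 21, against 9.69, 7.77, 6.29, 8.04 and 8.91 in B6 livers. The strains did not overlap, and the 4 fed D2 arrays were near background. Nlrp12 averaged 3.34 ± 0.99 in D2 and 8.14 ± 1.28 in B6 (SD, n = 5 arrays each), a difference of −4.80 ± 0.35 (SE, limma adjusted p = 0.000223), the sign being the same at all 5 weeks. With 1 array left out at a time it ranged from −5.20 to −4.48, with a limma adjusted p of at most 0.00299, and was −5.20 without B6 week 4 (limma adjusted p = 5.62e-05). In both strains the week 0 array was the highest, and all 8 fed arrays lay below it. The fed minus week 0 difference was −2.05 ± 0.48 (limma adjusted p = 0.0764), and −1.82 without B6 week 4, where it passed (limma adjusted p = 0.0244). In B6, week 4 was the lowest array for Nlrp12, where the other members were highest. The B6 week 0 array, the highest for Nlrp12, had the lowest summed signal of monocyte and macrophage markers (1613). It did not have their lowest mean log2, which was 5.67 there and 5.19 on D2 week 12. A single probe set carries all these values, and whether it reads Nlrp12 of myeloid cells was not tested. Whether the strains differ in sequence under its probes was not tested, so the size of −4.80 is that of the signal.

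Counted together, 1 of the 9 tested genes differed between the strains, where 7.98% of all genes did (3.91% higher and 4.07% lower in D2). None of the 9 passed for fed minus week 0 arrays (2 at an unadjusted p under 0.05), where 0.651% of all genes did (0.416% higher and 0.235% lower). None passed within D2 (2 unadjusted) or within B6 (1 unadjusted), where 0.118% of all genes passed in each (0.118% higher and 0% lower in D2, 0.109% higher and 0.00904% lower in B6). None passed for the difference of the responses (1 unadjusted, 0.00904% of all genes passed) or for the slope over the fed weeks (0 unadjusted, 0% of all genes passed). At an unadjusted p under 0.05 stood 24% of all genes for strain, 17.4% for diet, 11.4% within D2, 12.6% within B6, 6.08% for the difference of the responses and 4.73% for the slope. The median over the 9 genes was −0.58 for D2 minus B6, 0.61 for fed minus week 0, 0.27 within D2 and 0.81 within B6, while the medians of all genes were between 0.00 and 0.01. Without B6 week 4 the medians of the 9 genes were −0.19 for strain, 0.26 for diet and 0.43 within B6, and 1 of the 9 passed for strain (Nlrp12), 1 for diet (Nlrp12), 1 within D2 (Csf3r) and 0 within B6.

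**Figure D3:**
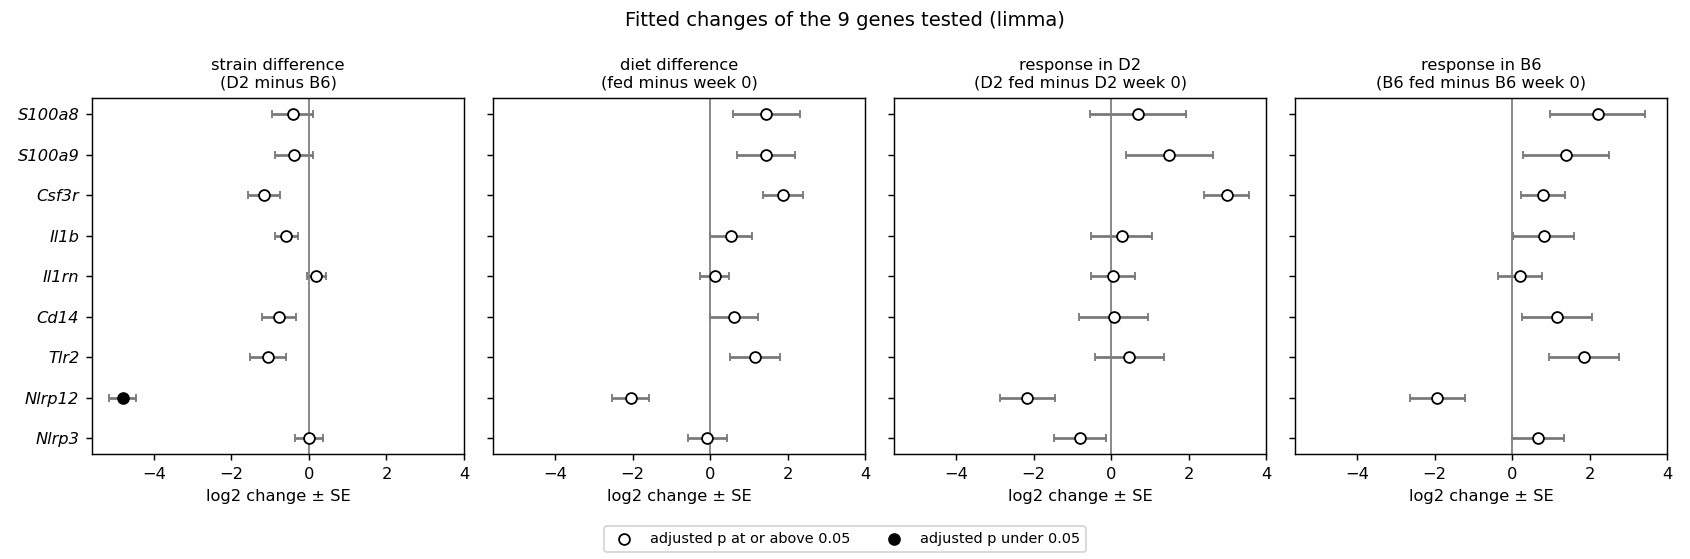
Log2 differences with standard errors (horizontal axis) of the 9 tested genes (rows) for D2 minus B6, fed minus week 0, and fed minus week 0 within D2 and within B6, all 10 arrays included. Nlrp12 at −4.80 between the strains is the only filled symbol, which marks an adjusted p under the threshold, and Csf3r lies at 2.98 within D2.

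At week 4 the strains differed in 1 direction for every tested member. All 9 genes were lower in D2 than in B6 at week 4 by at least 1 on the log2 scale, against 7.79% of all genes, with a median of −2.75. This includes Nlrp12, lower in D2 at every week, whose gap was narrowest at week 4 (−3.19). It also includes Csf3r, whose gap was wider at week 0 (−2.92) than at week 4 (−1.94). At weeks 0, 1, 12 and 21 the medians of D2 minus B6 were 0.04, −0.36, −0.09 and −0.32. In D2, 2 of the 9 were higher at week 4 than at week 0 by at least 1, S100a9 by 1.58 and Csf3r by 2.86, where 3.54% of all genes were. In B6, 8 of the 9 were, led by S100a8 with 4.84, S100a9 with 3.87, Tlr2 with 3.77 and Cd14 with 3.23, where 9.37% of all genes were. The exception, Nlrp12, was lower at week 4 in both strains, by −1.96 in D2 and −3.39 in B6. Of the 9, 8 had their highest value of all 10 arrays on B6 week 4, against 15.3% of all genes, and 6 stood there at least 1 above the next array, against 2.11%. The pattern is that of 1 array from 1 pool of mice, with no replicate, and a technical and a biological source cannot be told apart. At week 12 the B6 median over week 0 was back at 0.10, against 2.55 at week 4, and at week 21 it was 0.89. In D2 the medians over week 0 were 0.14, 0.23, −0.00 and 0.19 at weeks 1, 4, 12 and 21.

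**Figure D4:**
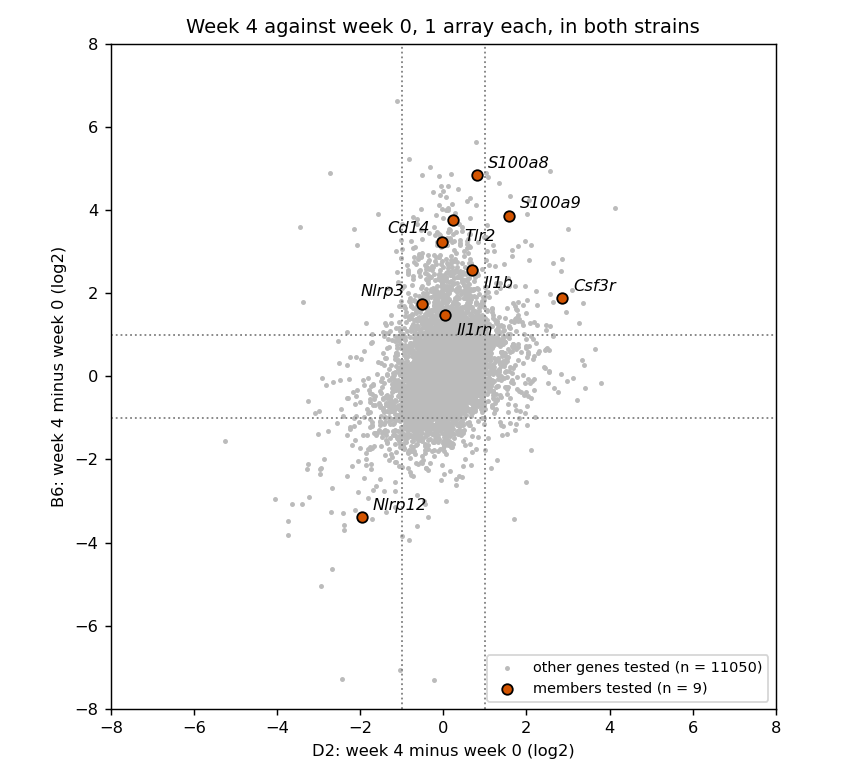
Week 4 minus week 0 in D2 livers (horizontal axis) and in B6 livers (vertical axis), log2 scale, for all 11059 genes (grey) and the 9 tested members (named). On the B6 axis 8 members lie above 1, with S100a8 at 4.84, while on the D2 axis 6 of them lie below 1.

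Genes known to work with the members, and markers of other liver cells, were read from lists. Neutrophil granule and surface genes, which define the cell type, gave weak signals: 30 of 38 had a probe set and 9 were above background on average. Of the 30, 6 were near background on B6 week 4 and 16 to 20 on each of the other 9 arrays. Mpo, the myeloperoxidase of primary granules, was at 4.05, 2.55, 3.97, 3.76 and 3.61 in D2 at weeks 0 to 21, against 2.54, 3.62, 4.26, 4.03 and 3.53 in B6. Elane, the gene of neutrophil elastase, was at 2.80, 3.84, 3.82, 3.30 and 4.21 in D2, against 2.26, 0.95, 4.45, 3.79 and 1.97 in B6. The means of both over the 10 arrays were below the background level, and for Ly6g no probe set was found by its symbol. The summed signal of the 30 genes, to which the brightest add most, was 4153 to 5034 on the D2 arrays. It was 3074 to 4913 on the B6 arrays other than week 4, where it was 11130. Their median log2 was 3.13 to 3.25 on the D2 arrays, 3.20 to 3.57 on these B6 arrays and 4.60 on B6 week 4. The summed signal of 14 monocyte and macrophage markers was 1669 to 2279 in D2 and 1613 to 5748 in B6 without week 4, where it was 12020. In B6 at week 21 the sum of these markers was 5748 (1613 at week 0), and that of the neutrophil genes 4913 (3723 at week 0). The median log2 of the 30 neutrophil genes was not higher, at 3.20 (3.23 at week 0), with 20 of them near background on either array. Their mean log2, at 4.05, was above that of week 0. The part of the neutrophil genes and of the monocyte and macrophage markers in the members' values was not tested.

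At week 4, 0 of the 9 tested neutrophil genes were at least 1 above week 0 in D2 and 8 of 9 in B6, and for the 12 monocyte and macrophage markers it was 0 in D2 and 12 in B6. The counts were 2 of 16 in D2 and 11 in B6 for NF-kB response genes, 0 of 12 in D2 and 8 in B6 for inflammasome genes, and 0 of 13 in D2 and 7 in B6 for partners and receptors of IL-1, TNF and G-CSF. Adaptors and partners of the Toll-like receptors had 0 of 13 in D2 and 3 in B6, and neutrophil-attracting chemokines 1 of 3 in D2 and 2 in B6. Of all genes, 3.54% in D2 and 9.37% in B6 were at least 1 above week 0. The chemokines had medians over week 0 of 1.53 in D2 and 0.54 in B6 at week 12, and of 1.15 in D2 and 0.67 in B6 at week 21, where 3 of 3 in D2 and 1 in B6 were at least 1 above week 0. Kupffer cell markers stood at 0 of 8 in D2 and 3 in B6, stellate cell markers at 0 of 7 in D2 and 4 in B6, and hepatocyte (7 genes) and endothelial markers (6 genes) at 0 in both strains. As examples, D2 at week 4 had Cybb, the catalytic subunit of the phagocyte oxidase, at 6.63 (6.52 at week 0), the inflammasome adaptor gene Pycard at 4.60 (3.82 at week 0), the neutrophil chemokine gene Cxcl1 at 7.52 (6.18 at week 0) and the acute phase gene Saa3 at 6.92 (7.01 at week 0). On the B6 week 4 array Cybb was at 10.40 (6.40 at week 0) and Pycard at 7.19 (3.07 at week 0). Cxcl1 was there at 9.47 (4.82 at week 0) and Saa3 at 11.17 (6.36 at week 0). These genes are among those of the lists with the smallest adjusted p within B6, so a large difference there follows from the choice.

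**Figure D5:**
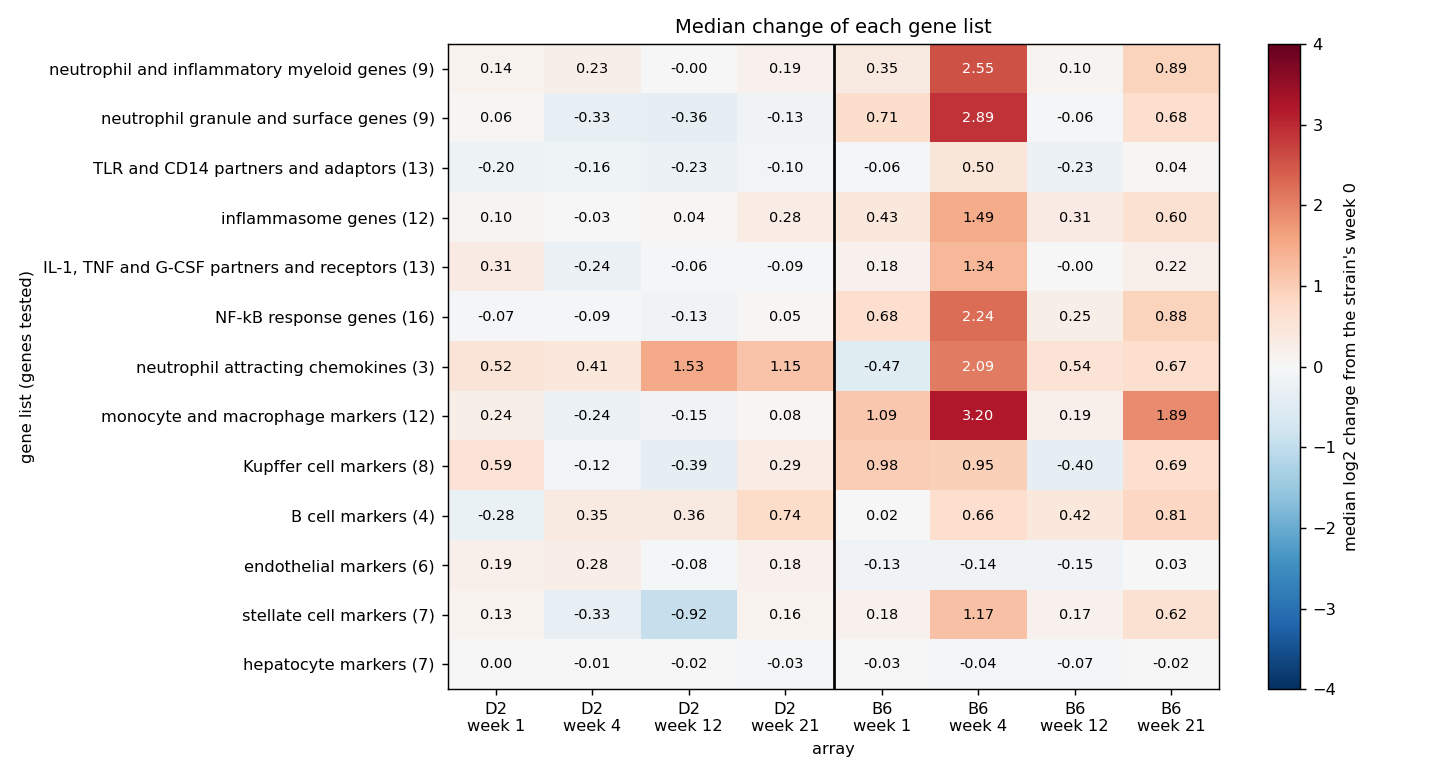
Median log2 difference from the same strain's week 0 (colour) over the tested genes of each list, for D2 and B6 at weeks 1, 4, 12 and 21. The B6 week 4 column is highest for monocyte and macrophage markers at 3.20 and neutrophil genes at 2.89, while hepatocyte markers are at −0.04 there.

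Partner genes were set against the 7.98% of all genes that passed between the strains. For D2 minus B6, 1 of 9 neutrophil genes was higher (Wfdc21) and 1 lower (Selplg, the ligand of the selectins). One of 13 Toll-like receptor partners was higher (Tirap, an adaptor, 0.61 ± 0.11, limma adjusted p = 0.0154), 1 of 12 inflammasome genes was higher (Nlrp6), 1 of 13 cytokine partners was lower (Tnfrsf1b, a TNF receptor), and 1 of 16 NF-kB response genes was lower (Nfkbie, an inhibitor of NF-kB, −1.32 ± 0.31, limma adjusted p = 0.0406). Monocyte and macrophage markers had 3 of 12 lower (Cd52, Gpnmb and the Fc receptor gene Fcgr1), and Kupffer markers 1 of 8 higher (the haemoglobin scavenger receptor gene Cd163) and 1 lower (the folate receptor gene Folr2). Of 7 stellate cell markers 2 were lower (Col1a1 and Lrat), of 6 endothelial markers 1 was lower (Lyve1), and of 3 neutrophil-attracting chemokines and 7 hepatocyte markers 0 passed. Without the B6 week 4 array only Tirap among the neutrophil, Toll-like receptor, inflammasome, cytokine and NF-kB genes still passed, and 1 of the 12 monocyte and macrophage markers, Cd52. Of the Kupffer markers 1 was then higher (Cd163) and 2 lower (Folr2 and Marco, a scavenger receptor gene). The medians of D2 minus B6 were −0.52 for neutrophil genes, −0.41 for inflammasome genes, −0.38 for NF-kB response genes and −1.14 for monocyte and macrophage markers, and −0.13, −0.13, −0.17 and −0.65 without that array. No gene of any list passed for fed minus week 0, within D2, within B6 or for the difference of the responses.

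The genes whose values ran most like a member's over the 10 arrays are given as a description, since the arrays share their week and strain. Tlr2 was followed most closely by Coro1a, a cytoskeletal gene of white blood cells (Pearson r = 0.989 over 10 arrays, 0.956 without B6 week 4), and Csf3r by Sh3kbp1, an adaptor gene (0.982 and 0.978). S100a8 was nearest to Treml4 (0.97 and 0.901), S100a9 to Malt1, a protease of NF-kB signalling in lymphocytes (0.972 and 0.885), and Nlrp3 to Klrg1, a lectin receptor gene of lymphocytes (0.928 and 0.901). For 3 members the likeness leaned on B6 week 4: Cd14 with Fxyd5 (0.982 and 0.743), Il1b with Nod1, a bacterial sensor (0.971 and 0.724), and Il1rn with the neutrophil granule gene Ngp (0.915 and 0.77). Nlrp12 ran most like Rps6, a ribosomal protein gene (0.982 and 0.995). Among the members themselves, Cd14 and Tlr2 were the pair most alike (0.954 and 0.87), followed by S100a8 and Cd14 (0.917 and 0.631) and by S100a8 and S100a9 (0.915 and 0.667). Il1b and Cd14, at 0.901 over all arrays, were at −0.20 without B6 week 4.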

How the data were processed

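Liver RNA pooled from 5 mice per strain and week was measured on Affymetrix Mouse Genome 430 2.0 arrays. The authors deposited a signal intensity per probe set on a linear scale, computed with GCOS, per the submitters' processing notes, which give no version. The 2% trimmed means of the arrays differed by a ratio of 1.59, above the set limit of 1.5, and the arrays were quantile normalised. Of 45101 probe sets, 64 controls, 932 with several symbols and 9160 with none were left out, and symbols were updated through RefSeq GRCm38.p6. The brightest probe set by mean stood for a gene, which was kept where that mean exceeded the 50th percentile (3.74). The pseudocount is the 10th percentile of the deposited intensities.

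Tests used limma 3.58.1 (lmFit, eBayes with trend) in R 4.3.3, with statmod 1.5.0 and data.table (version 1.17.8). Benjamini-Hochberg adjustment ran over all 11059 genes, with a threshold of 0.05. For D2 minus B6, week was a block: each week has 1 pool of either strain, per the labels. For fed minus week 0, strain was a term. The responses and their difference came from 4 group means sharing 1 spread over both strains. A strain's single week 0 array was taken to vary like the fed arrays. The slope was fitted to log2(week) in the 8 fed arrays, adjusting for strain. P-values measure the spread between these arrays only, and their number limits the precision. Figures come from matplotlib 3.10.9 (Python 3.11.15).

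Members, lists, tests and alternatives were chosen with earlier results of these data known. Named were all members, up to 4 genes per list with the smallest adjusted p in the comparison described, Ly6g, Mpo and Elane, and the genes nearest to each member by Pearson correlation. Cybb, Pycard, Cxcl1 and Saa3 are among the list genes with the smallest adjusted p within B6. T and NK, B, mast and erythroid cell markers had 2, 4, 1 and 1 genes tested and no call in the strain or diet comparisons. On simulated data for 11059 genes with 200 changed, the strain fit recovered 64% of genes changed by 1 and 87% of genes changed by 2 on the log2 scale. The diet fit recovered 65% and 88%, the D2 fit 31% and 80%, the B6 fit 36% and 76%, and the fit of their difference 13% and 52%. The simulated noise was normal and independent between arrays, and each of these changes was equal on all arrays of a group. A change on a single array, such as B6 week 4, was not simulated, so these rates do not cover it. Alternatives were other pseudocounts and floors, scalings, filters, probe set rules, variance models and designs, and each array left out in turn. The count of list genes without the B6 week 4 array was added after seeing the data.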

Additional observations from a re-analysis of the deposited data

Results flagged for a closer look

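Il1rn stood out in 1 group: among the 4 fed B6 arrays, the week 4 array at 7.16 lay far from the other 3, with 0.921 of the group's whole range falling between it and its nearest neighbour. All 10 members were examined in this way in the fed arrays of both strains, 20 groups in all, and 1 was marked. Chance marks about 1 group in 20. The other members also peaked on the B6 week 4 array, apart from Nlrp12, but their remaining fed arrays were spread more widely.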

How the results depend on the processing

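Nlrp12 was lower in D2 and passed under all 21 alternatives for the strain difference, from −5.20 to −3.53, and was the only member that did. Without week as a block ("no replicate block"), 1 member passed, Nlrp12 at −4.80 (limma adjusted p = 0.000513), so leaving out the pairing changed no member's call. For fed minus week 0, the count of members that passed was 0 with all arrays, 1 with median centring (Nlrp12, −1.95, limma adjusted p = 0.0455) and 2 with values as deposited (Csf3r, 2.28, limma adjusted p = 0.00694, and Nlrp12, −1.59, limma adjusted p = 0.0156). Leaving out 1 array gave 0 to 1: Nlrp12 passed without B6 week 4 (−1.82, limma adjusted p = 0.0244) or B6 week 21 (−2.24, limma adjusted p = 0.0423). Within D2 it gave 0 to 1, Csf3r without B6 week 4. B6 week 4 enters the fit within D2 only through the spread shared by all groups. Over all alternatives Csf3r within D2 was 1.08 to 3.16, and its difference of the responses was 0.27 to 2.56. Why the counts for fed minus week 0 moved was not tested. Scaling moved the median of all genes for fed minus week 0 to 0.16 with median centring (276 higher and 37 lower) and 0.52 with values as deposited (4949 higher and 41 lower), against 0.01 (46 higher and 26 lower), and the members' median relative to it was 0.64, 0.64 and 0.60. For D2 minus B6, 208 genes were higher and 403 lower with values as deposited, against 432 and 450. Within B6, 1938 genes were higher and 8 lower as deposited, against 12 and 1, and the members' median was 1.42 against 0.81, or 0.84 relative to all genes against 0.80. Leaving out 1 array moved the members' median to 0.26 to 0.81 for diet and 0.43 to 1.10 within B6. Signs that changed were all of differences that did not pass. Nlrp3 for strain was −0.00286 with a pseudocount of 16, −0.038 with median centring, −0.14 as deposited and −0.28 with fed arrays only, and −0.28 to 0.29 with 1 array left out. Nlrp3 for diet was 0.0079 with median centring, 0.37 as deposited and −0.80 to 0.65 with 1 array left out. Il1rn within D2 was −0.26 as the mean of its probe sets. With 1 array left out, S100a8 for strain was −0.72 to 0.29, S100a9 for strain −0.75 to 0.21, Il1rn for diet −0.085 to 0.20 and Il1rn within B6 −0.23 to 0.36. The members' median within D2 was 0.44 with median centring, 0.68 as deposited and 0.13 to 0.36 with 1 array left out, and their median slope was −0.16 to 0.04 with 1 array left out. Without the array of 1 strain, that week's pair drops out of the strain difference, and without a week 0 array that strain's response could not be estimated. With signals near background on 9 of 50 D2 and 5 of 50 B6 values, the size of such differences is uncertain.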
